A study of Homo sapiens with 8 samples.

Results

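miR-4728 is a microRNA hairpin that lies inside ERBB2, the gene of the receptor HER2, and its 2 mature products, hsa-miR-4728-3p and hsa-miR-4728-5p, were followed among the 2006 human miRNAs of the array. Every array spot whose miRNA name equals that of an arm and that is not a control spot was taken, which gave 30 spots per arm, 15 for each of 2 probe sequences. The arms were measured in BT474 (labelled ER+, HER2+, PR+) and SKBR3 (labelled ER-, HER2+, PR+). The paper describes SKBR3 as PR-, unlike its label. These established breast cancer lines received either 6 µg/mL of trastuzumab or PBS alone for 144 h. Both lines carry HER2 under both treatments, so that no group stands for cells without it. PBS is the buffer control, and trastuzumab is an antibody that binds the outer part of HER2. The series labels 2 biological replicates for each line and treatment, which makes 8 arrays. SKBR3 PBS replicate 1 and BT474 PBS replicate 1 have the same scanner file, value for value. It was used once, under BT474, so that SKBR3 in PBS is represented by 1 array and 7 distinct arrays remain.

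A miRNA hairpin is cut by Dicer into a duplex, from which either the 5p or the 3p strand can be loaded into an Argonaute protein and guide it to messenger RNAs. Bases near the 5′ end of the mature strand, the seed, pair with the target, so the arms of a hairpin address different messenger RNAs. miR-4728 is transcribed with its host gene from an intron of ERBB2, which is amplified in HER2-positive breast cancer.

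The 2 mature sequences are shown because they differ in the seed and in base composition, and because each is read by its own probes. Capitals mark the seed, bases 2 to 8, and both sequences are from RefSeq (GRCh38.p14, plus strand of chromosome 17).
hsa-miR-4728-5p: uGGGAGGGgagaggcagcaagca
hsa-miR-4728-3p: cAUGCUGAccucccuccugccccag
The 5p arm occupies chr17:39726496-39726518 and the 3p arm chr17:39726537-39726561, at opposite ends of a hairpin of 67 bases. The hairpin begins 38401 bases after the start of ERBB2 and ends 2097 bases before the end of the gene, on the same strand. The 5p arm has 23 bases, 12 of them G, and the 3p arm has 25 bases, 13 of them C. The GC content is 65.2% for 5p and 68% for 3p. No other miRNA on the array with a matched sequence shares the 3p seed. The 5p seed occurs in 1 other, shown for comparison, and 1687 of the 2006 array names were matched to a sequence.
hsa-miR-149-3p: aGGGAGGGacgggggcugugc
hsa-miR-149-3p was detected on no array.

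Detected miRNAs numbered 247 to 256 on the BT474 arrays and 201 to 218 on the 3 distinct SKBR3 arrays. All arrays share 1 slide and 1 scan. The PBS arrays occupy its row 2 and those with trastuzumab its row 1, and treatment and row therefore cannot be told apart. Of 5 epithelial miRNAs, 5 were detected on every BT474 array and 2, hsa-miR-200c-3p and hsa-miR-141-3p, on every SKBR3 array, with summed levels of 29800 to 39078 and 12720 to 17623. None of 4 mesenchymal miRNAs was detected in either line, and of 4 blood cell miRNAs hsa-miR-451a alone was detected, on some BT474 arrays. RNA was taken from whole cultures, in which fewer cells that express an arm and less of it per cell cannot be told apart. The labels call the replicates biological, and with 1 or 2 arrays per group their number limits the precision of every value.

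The 3p arm was detected in BT474 cells under PBS and on no other distinct array. The extraction software's summed signal of hsa-miR-4728-3p, an intensity in arbitrary units, was 166 and 67.7 on the 2 BT474 PBS arrays. On both BT474 trastuzumab arrays and on all 3 SKBR3 arrays it was 0.1, the value that the software enters for a miRNA that is not detected. Among the 287 miRNAs detected on a BT474 array, 11 (3.83%) were likewise detected on both PBS arrays and on neither trastuzumab array. Of the 307 miRNAs detected on some array, 10 (3.26%) were detected on both BT474 PBS arrays and nowhere else. The 5p arm showed another pattern. The summed signal of hsa-miR-4728-5p was 44.7 on the SKBR3 PBS array and 97.9 and 52.0 on the SKBR3 trastuzumab arrays, and it was not detected on any of the 4 BT474 arrays. Detection on all 3 SKBR3 arrays and on no BT474 array was found for 6 of 307 miRNAs detected anywhere (1.95%). By the flag, therefore, no array held both arms, and BT474 under trastuzumab held neither. Of 534 hairpins with both arms on the array, 28 had each arm detected on some array, and miR-4728 was the 1 hairpin among them with one arm detected in BT474 only and the other in SKBR3 only.

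These flags rest on a threshold. On every array the flag was set exactly where at least 1 probe of the miRNA had a total signal of 3 times its error or more, which matched 2006 of 2006 miRNAs, and the summed signal added only the probes that passed. Of the 28 pairs of an arm's probe and an array, 6 passed. Both probes of the 3p arm passed on BT474 PBS replicate 1, at 4.04 and 5.40 times their error. On BT474 PBS replicate 2 they stood at 2.89 and 3.61, so that the lower summed signal of this array counts 1 probe, not 2. For the 5p arm it was always probe A_25_P00017210 that passed, at 3.21, 5.14 and 3.09 times its error on the SKBR3 arrays, while probe A_25_P00017209 passed on none. On BT474 the same 5p probe stood at 1.70 to 2.50. The total signal of probe A_25_P00017210 was 45.0 with an error of 18.0 on BT474 PBS replicate 2, where 5p was not detected. It was 44.7 with an error of 13.9 on the SKBR3 PBS array, where 5p was detected. Nearly the same probe signal, before any scaling, thus fell on opposite sides of the threshold in the 2 lines.

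**Figure D1:**
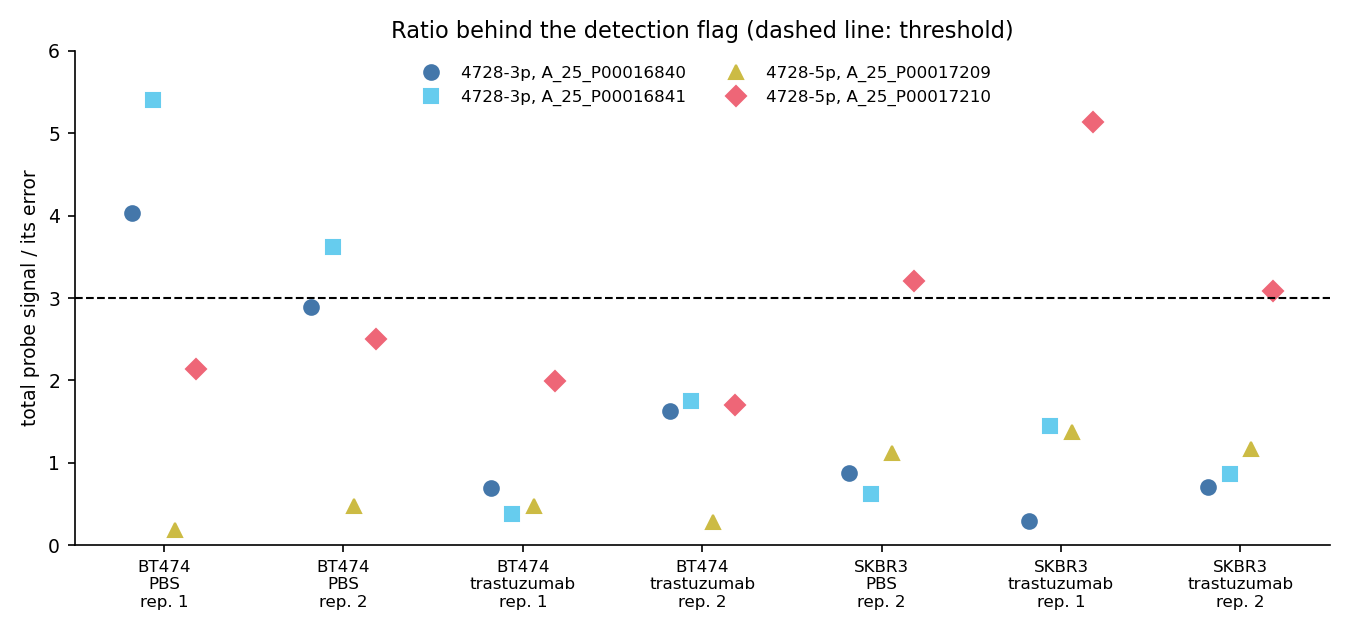
Ratio of the total signal of each probe to its error (y axis, no unit) on the 7 distinct arrays (x axis), with 1 symbol for each of the 4 probes of the 2 arms. The dashed line marks the ratio of 3 above which the software counts a probe. The 3p probes lie above it on the BT474 PBS arrays, except for 1 at 2.89, and probe A_25_P00017210 of 5p lies above it on the SKBR3 arrays, on 2 of them closely.

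To give a value on both sides of the threshold, the total signals of both probes of an arm were also added without regard to the flag. For the 3p arm this sum was 166 and 121 in BT474 under PBS and 16.5 and 61.1 after trastuzumab. It was 19.7 on the SKBR3 PBS array and 28.7 and 25.1 on the SKBR3 trastuzumab arrays. Both BT474 PBS arrays were above all others, and the miRNAs that share this order over all arrays were not counted. Within BT474 the treatments did not overlap, which held in the same direction for 54 of the 287 miRNAs detected on a BT474 array (18.8%). For the 5p arm the sum was 36.2 and 53.2 in BT474 under PBS and 38.1 and 35.7 after trastuzumab. In SKBR3 it was 59.6 under PBS and 121 and 70.7 under trastuzumab. The lines did not overlap for 5p, but the gap between the highest BT474 array and the lowest SKBR3 array was small, 53.2 against 59.6. The lines were separated this way for 19 of 307 miRNAs (6.19%).

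**Figure D2:**
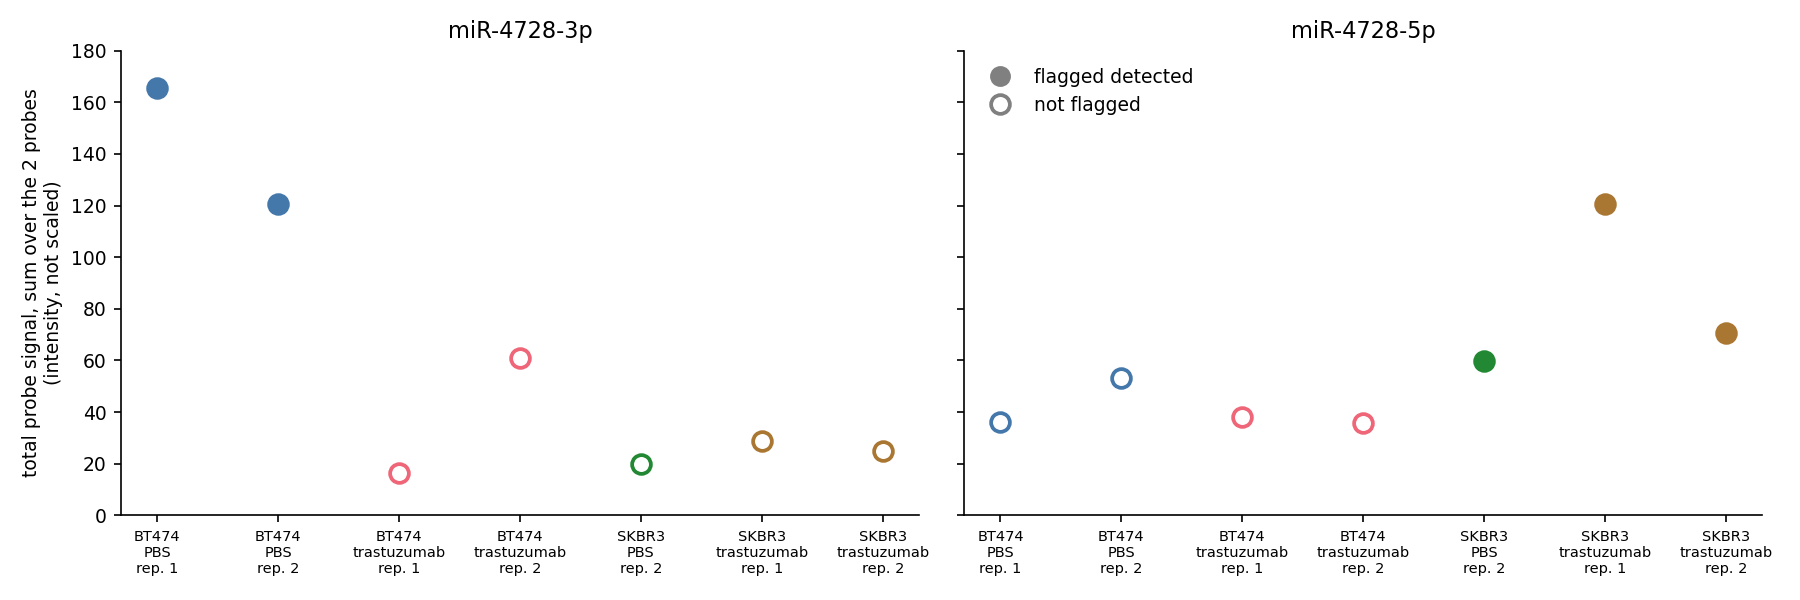
Total probe signal added over the 2 probes of each arm (y axis, intensity without scaling between arrays) on each distinct array (x axis). Filled circles were flagged as detected and open circles were not. The 3p arm is highest on the 2 BT474 PBS arrays, and the 5p arm is highest in SKBR3 with BT474 PBS replicate 2 just below.

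In BT474 the 3p arm fell after trastuzumab. On the quantile normalized log2 scale, with a floor at an intensity of 10, hsa-miR-4728-3p stood at 7.20 and 5.17 under PBS and at the floor, 3.32, on each array with trastuzumab. Both PBS arrays were higher than both trastuzumab arrays, although the PBS arrays differed from each other by more than the lower one stood above the floor. The fitted log2 change was -2.86 ± 0.83 (SE, 2 arrays per treatment; limma adjusted p = 0.124). It passed the rule used for single comparisons, an unadjusted p under 0.05 with a fold change above 2, but not an adjusted p under 0.05. This rule called 20 of 282 miRNAs lower after trastuzumab, 7.09% (13 higher and 28 lower calls with 75th percentile scaling, against 20 and 20). With the sum over both probes, whatever their flag, the change was -2.08 ± 0.59 (limma adjusted p = 0.171) and was called, with 4.72% of 827 miRNAs in this direction. Since the arm was not detected after trastuzumab, its size is a bound. On these sums the arm was at least 3.35-fold lower, taking on each trastuzumab array the lowest sum of a detected miRNA or, where higher, the sum of the arm itself. On BT474 trastuzumab replicate 1 the 3p probes stood at 0.69 and 0.39 times their error. Without trastuzumab replicate 1 the decrease was -2.76 and without replicate 2 it was -2.65, and neither was called. Its sign could not turn there, since the arm stood at the floor on the trastuzumab array that remained. Without BT474 PBS replicate 1 it was -1.70, in a fit that gives no p for this arm. The call was also lost with the methods' t-test (adjusted p = 0.255) and with the replicate number as a block (limma adjusted p = 0.203).

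The 2 probes of the 3p arm moved alike in BT474. The mean background-subtracted intensity per spot of probe A_25_P00016841 was 463 ± 96.8 and 319 ± 127 (SD over its spots) under PBS and 27.7 ± 77.2 and 149 ± 106 after trastuzumab. Probe A_25_P00016840 gave 318 ± 93.1 and 250 ± 150 under PBS and 50.2 ± 117 and 139 ± 100 under trastuzumab. Neither probe overlapped between the treatments in its means, and in both the second trastuzumab array kept more signal than the first. The share of all probes in this order was not counted. On the sums over both probes it was 18.8% of 287 miRNAs. On that array the means lay above 97.8% and 97.3% of the probes of undetected miRNAs. The log2 change of probe A_25_P00016840 was -1.64 ± 0.50 (limma adjusted p = 0.404) and it was called, as were 4.5% of all probes in this direction. That of probe A_25_P00016841 was -2.44 ± 0.82 (limma adjusted p = 0.452) and was not. At the level of single spots, the software found all 30 spots of the 3p arm positive and significantly above background on each BT474 PBS array. It found 11 and 21 of them so on the trastuzumab arrays.

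**Figure D3:**
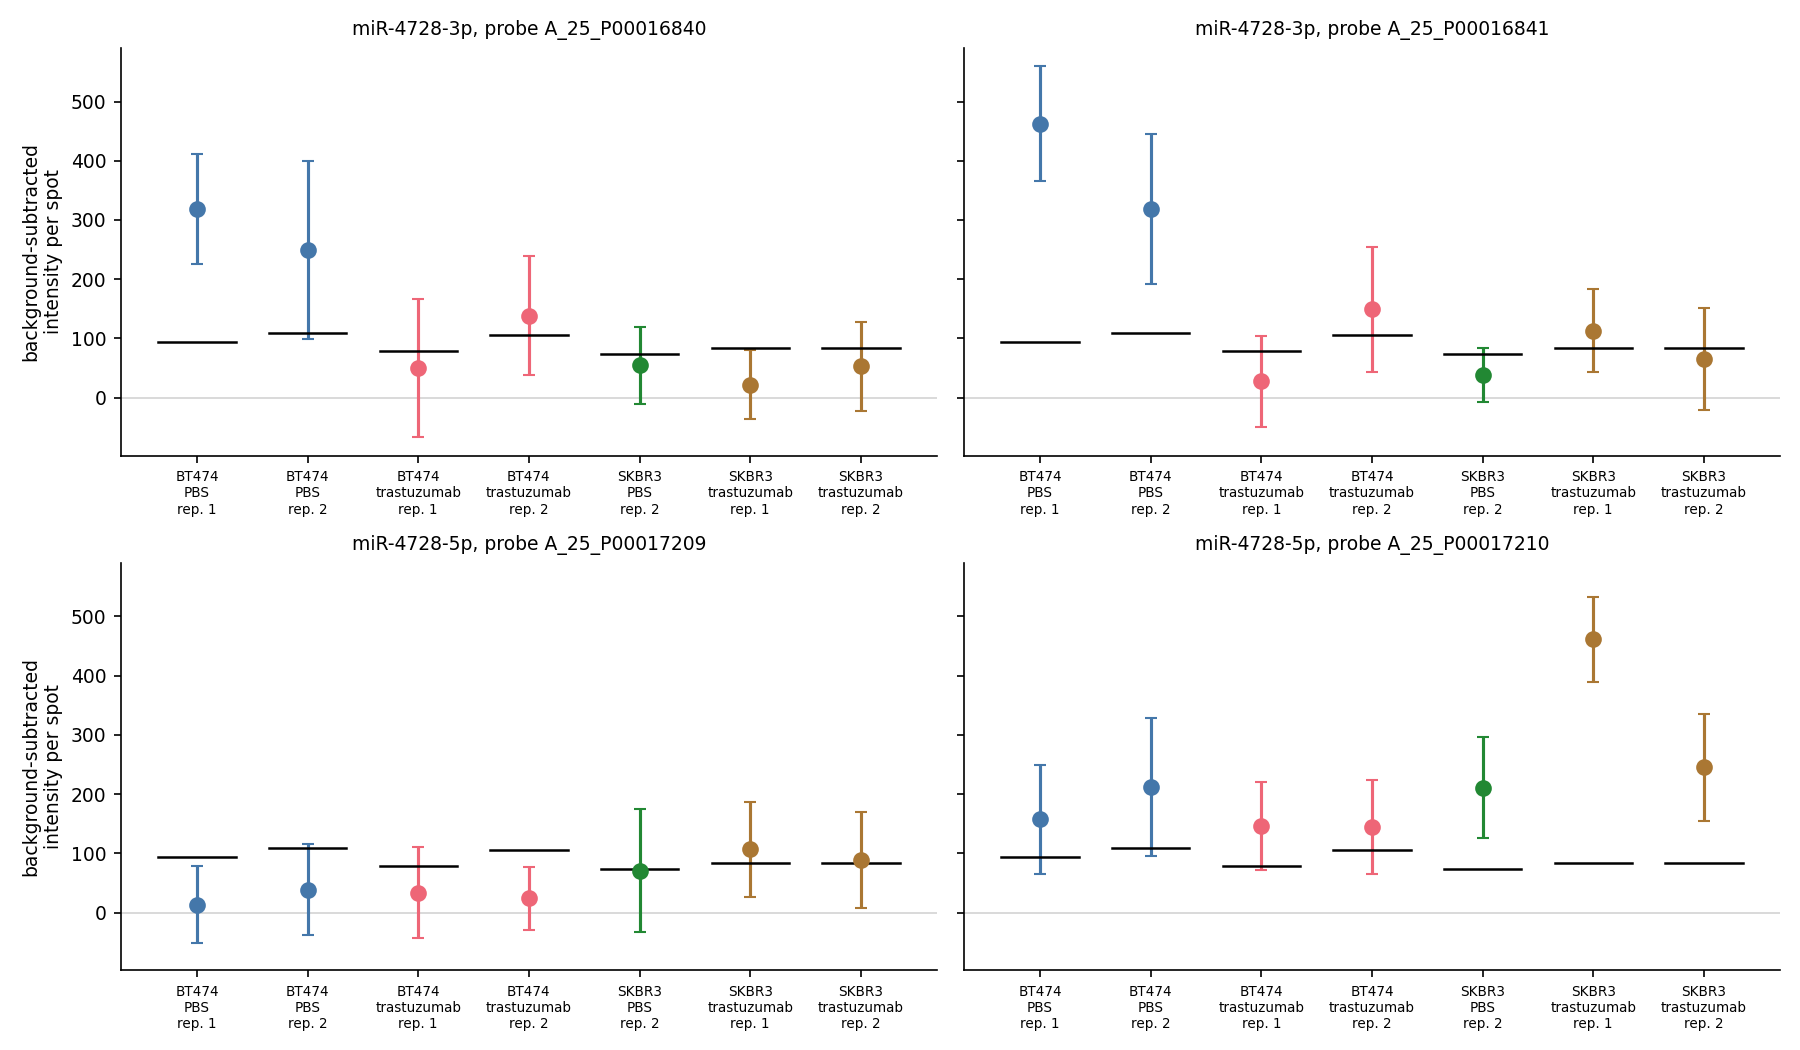
Background-subtracted intensity per spot (y axis, arbitrary units) of the 4 probes on the 7 distinct arrays (x axis). Circles are means and bars the SD over 14 or 15 spots of 1 array, so they show technical spread, and black lines mark the 95th percentile of the means of probes of undetected miRNAs on that array. Both 3p probes stand high on the BT474 PBS arrays, and 5p probe A_25_P00017210 stands above the black line on every array.

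In BT474 the 5p arm was at the floor on all 4 arrays and had no measurable change by the summed signal. With the sum over both probes its log2 change after trastuzumab was -0.08 ± 0.24 (limma adjusted p = 0.873), or -0.70 ± 0.21 with 75th percentile scaling (limma adjusted p = 0.122), and neither was called. The probe that passed in SKBR3, A_25_P00017210, read 157 ± 91.7 and 212 ± 116 per spot under PBS. Under trastuzumab it read 146 ± 74.3 and 144 ± 79.3. Its means on the 4 BT474 arrays lay above 97.6% to 99.4% of the probes of undetected miRNAs. This probe thus gave some signal in BT474 although the flag was not set. The other 5p probe, A_25_P00017209, read 13.2 to 38.9 on the 4 arrays, below the 95th percentile of such probes on each. Between treatments the log2 changes of the probes were -0.20 ± 0.28 and 0.41 ± 0.53, and neither was called.

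In SKBR3 neither arm passed the test between treatments. The normalized log2 level of hsa-miR-4728-5p was 6.76 on the PBS array and 7.18 and 6.45 on the trastuzumab arrays. The PBS array lay between the trastuzumab arrays, and the change was 0.06 ± 0.52 (limma adjusted p = 0.958) with a 95% confidence interval of -3.09 to 3.20. Such an interval, from 1 array against 2, leaves a large change in either direction undetectable. In this comparison 27 of 222 miRNAs, 12.2%, were called. Probe A_25_P00017210 read 211 ± 84.9 per spot under PBS and 461 ± 71.6 and 245 ± 89.7 under trastuzumab, so that 1 trastuzumab array stood far from the other. The 3p arm was at the floor on all 3 SKBR3 arrays. Its probes read 22.3 to 113 per spot there, and its sum over both probes gave a change of 0.45 ± 0.08 (limma adjusted p = 0.194), which was not called. Its 2 probes changed in opposite directions, A_25_P00016840 by -0.79 ± 1.09 and A_25_P00016841 by 1.41 ± 0.46, and neither was called. On these arrays they stood at 0.29 to 1.45 times their error.

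Whether the 3p arm responded differently in the 2 lines was tested by the interaction term of a fit to all 7 arrays. The BT474 change minus the SKBR3 change was -2.86 ± 1.17 (limma adjusted p = 0.209), which did not pass, where 49 of 304 miRNAs, 16.1%, had an adjusted p under 0.05 (30 higher and 19 lower, or 16 and 35 with 75th percentile scaling). The response of the 3p arm was therefore not shown to differ between BT474 and SKBR3. On the summed signal the 3p arm stood above the floor on the 2 BT474 PBS arrays only. Its SKBR3 change is thus fixed by the floor, and the interaction repeats the size of the BT474 decrease. The sum over both probes gave -2.53 ± 0.91 (limma adjusted p = 0.202).

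Between the lines under PBS, the arms differed in opposite directions. hsa-miR-4728-3p was higher in BT474 by 2.86 ± 0.90 on the log2 scale (limma adjusted p = 0.0597). hsa-miR-4728-5p was lower in BT474, with a change of -3.44 ± 0.33 (limma adjusted p = 0.00236). Both were called, as were 22.7% and 19.4% of 304 miRNAs in the respective direction, so that a call between the lines was common (69 higher and 59 lower, or 89 and 30 with 75th percentile scaling). The number of detected miRNAs and the epithelial miRNAs also differed between the lines, and their part in these differences was not tested. SKBR3 under PBS is 1 array here. The 3p arm stood at the floor on it, so the 3p difference repeats the size of the BT474 decrease after trastuzumab. All BT474 arrays held the 5p arm at the floor, so its own spread in this fit comes from the SKBR3 trastuzumab arrays alone. For the 3p arm it comes from the BT474 PBS arrays alone. The SE and p of these differences, here and under trastuzumab, are thus partly set by the floor. The 3p call was lost in a fit to the PBS arrays alone (limma adjusted p = 0.288), and with the shared file also under its SKBR3 label neither arm was called (0.97 and -1.73). On the sums over both probes, the 3p arm was at least 3.38-fold higher in BT474, as a bound. Under scaling of each array to its 75th percentile this bound was 3.43-fold, and without scaling 5.86-fold. The 5p arm was 3.08-fold lower in BT474, 2.32-fold with 75th percentile scaling and 1.36-fold without scaling. For 5p its own sum was the higher on both BT474 PBS arrays, so these folds are the fitted differences and not minimums. None of these folds allows for the spread between arrays. Fewer miRNAs were detected in SKBR3, and after quantile normalization the lowest detected signal of an SKBR3 array lay at 5.48 to 6.21 on the log2 scale, against 3.32 to 4.34 in BT474. Under trastuzumab the 3p arm was at the floor in both lines, and the 5p arm was again lower in BT474, by a log2 change of -3.49 ± 0.27 (limma adjusted p = 0.00106), where 19.7% of miRNAs were called lower.

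The size of the 5p difference between the lines depended on how the signal was summed and scaled. With both probes added, whatever their flag, it was -1.62 ± 0.45 under PBS (limma adjusted p = 0.0695) and -1.92 ± 0.37 under trastuzumab (limma adjusted p = 0.0340). Both were called, as were 13.9% and 8.87% of 992 miRNAs in this direction. Without any scaling between arrays it was -0.44 ± 0.43 under PBS (limma adjusted p = 0.601), which was not called, and -1.32 ± 0.35 under trastuzumab (limma adjusted p = 0.110). The 173 miRNAs detected on all 7 arrays moved with the scaling too. Their median difference, BT474 minus SKBR3 under PBS, was -0.32 after quantile normalization, 0.09 after 75th percentile scaling and 0.86 without scaling. Relative to that median, the 5p arm summed over both probes was lower in BT474 under PBS by a log2 difference of -1.31, -1.30 and -1.30. The last 2 values of such a set must be equal, because 75th percentile scaling multiplies each array by a single factor that the median takes out. Under trastuzumab the relative differences were -1.49, -1.91 and -1.91. For the 3p arm summed in the same way, the differences relative to the median under PBS were 2.56, 1.98 and 1.98. Under trastuzumab they were 0.14, -0.34 and -0.34, and no difference of the 3p arm under trastuzumab was called.

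Probe by probe, both probes of the 5p arm were lower in BT474 under PBS, with log2 differences of -2.19 ± 0.58 and -1.44 ± 0.41 (limma adjusted p = 0.113 and adjusted p = 0.128). Under trastuzumab they were lower by -2.05 ± 0.47 and -1.80 ± 0.33 (limma adjusted p = 0.102 and adjusted p = 0.0610). All 4 of these were called, as were 11.6% of probes in this direction under PBS and 6.5% under trastuzumab. Probe A_25_P00016841 of the 3p arm was higher in BT474 under PBS, by 3.03 ± 0.96 (limma adjusted p = 0.164). Probe A_25_P00016840 gave 1.86 ± 0.87 (limma adjusted p = 0.327) and was not called. Of all probes, 8.21% were called higher in BT474 under PBS. None of these probe differences between lines had an adjusted p under 0.05.

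The balance of the arms was followed on each array as the 3p sum divided by the 5p sum, both over all probes. As probes of different sequence differ in brightness, the ratio of 1 array says nothing of which arm was more abundant, and only its change between arrays was read. The ratios were taken without scaling. Multiplying a whole array by a single factor leaves its ratio unchanged, whereas quantile normalization can change it. In BT474 the 5p probe A_25_P00017209 stood at 0.18 to 0.48 times its error. The 3p probes stood below the threshold in SKBR3 and under trastuzumab. The ratio therefore rests in part on probes near background, so that its size is not measured exactly. It was 4.58 and 2.27 in BT474 under PBS and 0.433 and 1.71 after trastuzumab. It was 0.331 on the SKBR3 PBS array and 0.238 and 0.355 on the SKBR3 trastuzumab arrays. Every BT474 array was above every SKBR3 array, although BT474 trastuzumab replicate 1 was close to the SKBR3 range. Among the 28 hairpins with both arms detected on some array, 5 (17.9%) had all BT474 ratios above all SKBR3 ratios. Both BT474 PBS ratios were above both BT474 trastuzumab ratios, and the hairpins that share this order were not counted.

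On the normalized summed signals, 3p minus 5p was higher in BT474 than in SKBR3 by 6.30 ± 0.90 on the log2 scale under PBS (limma adjusted p = 0.00727) and by 3.49 ± 0.74 under trastuzumab (limma adjusted p = 0.0245). Both were called, where 17.9% and 14.3% of the 28 hairpins were called higher in BT474. At least 1 arm was at the floor on every array, so that these sizes, their SE and their p depend on the floor. With the shared file also under its SKBR3 label neither was called (2.70 and 3.53). With the sums over all probes, quantile normalized, the differences were 3.86 ± 0.67 under PBS (limma adjusted p = 0.000838) and 1.63 ± 0.54 under trastuzumab (limma adjusted p = 0.0341). Both were called, as were 21.4% of hairpins in this direction under each treatment. With 75th percentile scaling or none the differences were 3.28 under PBS and 1.57 under trastuzumab. The trastuzumab difference kept its call with 75th percentile scaling, but not without scaling (limma adjusted p = 0.107). On the quantile normalized sums miR-4728 had the second highest value of the 28 hairpins under PBS. It stood after miR-200b at 7.33 and before miR-21 at 2.05, which were named after their values were seen. The change of the arm difference with trastuzumab, BT474 minus SKBR3, was -2.80 ± 1.16 (limma adjusted p = 0.294) and was not called, while 3.57% of the hairpins were.

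**Figure D4:**
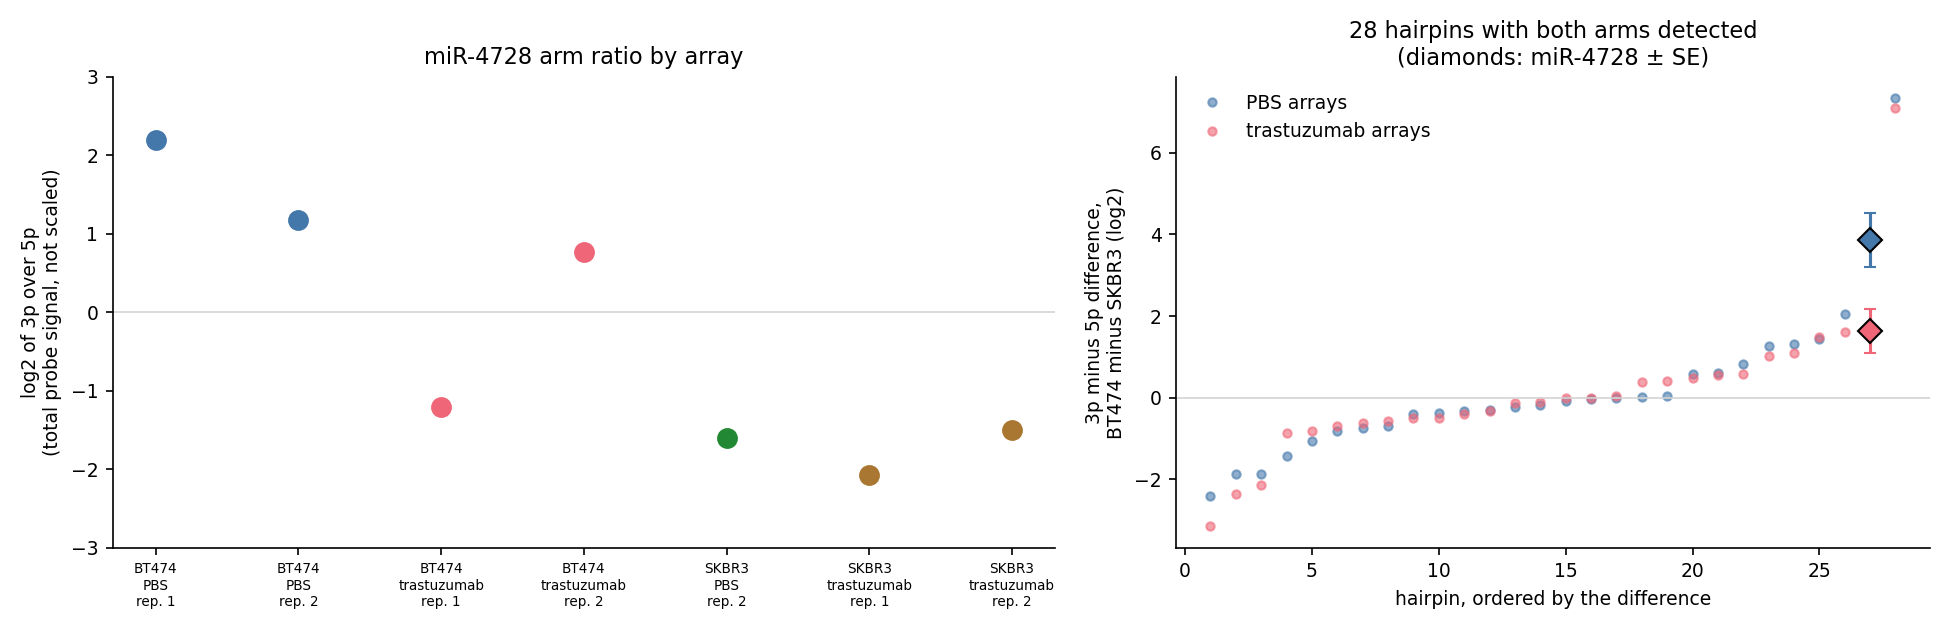
Left, log2 of the 3p sum over the 5p sum of miR-4728 (y axis, over all probes, not scaled) on each distinct array (x axis). Right, the difference of 3p minus 5p between BT474 and SKBR3 (y axis, log2, quantile normalized sums) for the 28 hairpins in rising order (x axis), with miR-4728 as diamonds ± SE. The ratio of every BT474 array lies above those of SKBR3, and the diamonds stand at 3.86 for the PBS and 1.63 for the trastuzumab arrays.

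The log2 values deposited by the authors, which were normalized within each line and can be compared within a line only, were lower for both 3p probes on both BT474 trastuzumab arrays than on either BT474 PBS array. How many other probes share this order was not counted. Averaged over its 2 probes, the 3p arm changed by -1.61 ± 0.39 (limma adjusted p = 0.484). The 5p arm changed by -0.26 ± 0.44 in BT474 (limma adjusted p = 0.880) and by -0.13 ± 0.39 in SKBR3 without the shared array (limma adjusted p = 0.945), and was called in neither. In the column of SKBR3 PBS replicate 1 the 3p probes stood at 8.35 and 7.95. In that of SKBR3 PBS replicate 2 they stood at 5.96 and 6.03, and in that of BT474 PBS replicate 1 at 8.89 and 8.43. Whether the deposited SKBR3 PBS replicate 1 values come from the shared scanner file was not tested.

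No other miRNA that could be placed near ERBB2 was detected. By matched name, 11 array miRNAs come from 7 other hairpins within 5 Mb of ERBB2 on chromosome 17. Of these 11, 0 were detected on any distinct array, beside 307 of all 2006 miRNAs (15.3%). As 1687 of the 2006 names were matched, neighbours with an unmatched name are not counted here. Over the 7 arrays and 306 other detected miRNAs, the pattern of normalized levels most like that of hsa-miR-4728-3p was found for hsa-miR-4436b-5p, hsa-miR-3149, hsa-miR-483-3p, hsa-miR-466 and hsa-miR-877-3p, with Pearson's r from 1.00 to 0.978. Each was detected on 2 arrays, so that these values share mainly the floor. For hsa-miR-4728-5p they were hsa-miR-320d, hsa-miR-197-5p, hsa-miR-129-1-3p, hsa-miR-4653-3p and hsa-miR-31-5p, at 0.988 to 0.986. Of these, hsa-miR-129-1-3p, hsa-miR-4653-3p and hsa-miR-31-5p were detected on 3 arrays, as was 5p itself, and the others on all 7.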

How the data were processed

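Total RNA (TRIzol) was Cy3-labelled for Agilent one-colour arrays with probes for human miRNAs. The scanner files hold each spot's intensity as deposited by the authors (Agilent Feature Extraction 11.5.1.1, per the file headers), not normalized between arrays, with a summed intensity, its error and a detection flag per miRNA. The authors also deposited quantile normalized log2 values per probe. Here the summed signals of the 7 distinct arrays were quantile normalized, set to a floor of 10, put on the log2 scale and tested with limma 3.58.1 (lmFit, eBayes; R 4.3.3) with Benjamini-Hochberg adjustment. Treatments were compared within each line, and lines, the interaction and arm differences in a fit to all 4 groups. A single comparison was called at p under 0.05 with a fold above 2, and an interaction at an adjusted p under 0.05. A miRNA that never rose above the floor in a fit was not tested. Where an arm was detected in 1 group only, its fold was bounded on the sums over all probes. Each array of the other group took the lowest sum of a detected miRNA or the arm's own sum, whichever was higher. Where its own sum was used throughout, as for 5p between the lines, the fold is the fitted difference and not a minimum. Alternatives were 75th percentile scaling, a floor of 1, a detection filter, the mean processed signal, normexp background correction with an offset of 50, the deposited values, the shared file under its SKBR3 label, other sets of arrays, a replicate block, the methods' t-test and leaving out each array. Sums over all probes were added after the data were seen. The miRNAs named are the arms, those sharing a seed, markers of cell types and the 5 most alike in pattern. Detected neighbours within 5 Mb would also be named, but among matched names there were none. miR-200b and miR-21 were named after their values were seen. The members and lists were chosen with earlier results of these data known. The fits were tested on simulated data. Python 3.11.15 with matplotlib 3.10.9, scipy 1.17.1, numpy 2.4.6 and pandas 2.3.3 served for tables and plots.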

Additional observations from a re-analysis of the deposited data

Results flagged for a closer look

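The file labelled SKBR3 PBS replicate 1, which enters no comparison under that label because it repeats BT474 PBS replicate 1, holds hsa-miR-4728-3p as detected at a summed signal of 166, while the arm was not detected on the 3 distinct SKBR3 arrays. With the file also under its SKBR3 label, the SKBR3 change was -1.95 ± 1.56 for 3p (limma adjusted p = 0.616) and 1.79 ± 1.42 for 5p (limma adjusted p = 0.616).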

How the results depend on the processing

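Every alternative kept the sign of the 3p decrease in BT474 and of both line differences in PBS. Where the flag-based summed signal was used, the sign could not turn, since the group without detection stood at the floor. It could have turned with mean processed signals, normexp, sums over all probes and, for the BT474 decrease, the deposited values. Leaving out 1 array gave -3.79 to -1.70 for the BT474 decrease, 1.70 to 3.79 for 3p and -3.40 to -3.33 for 5p between the lines in PBS, -3.97 to -3.19 for 5p between the lines in trastuzumab and -3.79 to -1.70 for the 3p interaction. The values at 1.70 are those without BT474 PBS replicate 1, where the fit has no spread of the arm's own and gives no p. The 5p change in SKBR3 went from -0.32 (without SKBR3 trastuzumab replicate 1) to 0.43. The arm difference ranged from 5.10 to 7.12 in PBS, from 3.19 to 3.97 in trastuzumab, where the call was lost without SKBR3 trastuzumab replicate 1 (limma adjusted p = 0.104), and from -3.72 to -1.65 for its interaction. The miRNAs called ranged from 34 to 44 (BT474), 27 to 35 (SKBR3), 116 to 116 (lines, PBS), 119 to 128 (lines, trastuzumab) and 29 to 71 (interaction).

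With normexp the changes shrank below the fold limit: -0.77 for 3p in BT474, 0.80 and -0.68 for 3p and 5p in PBS, -0.74 for 5p and 0.65 for the arm difference in trastuzumab. The interactions then passed, at -0.88 for 3p, beside 61 of 2006 miRNAs, and at -0.82 for the arm difference, whose share among hairpins is not given here. With a floor of 1 the interaction of 3p also passed, at -6.18, beside 56 of 306 miRNAs. That size is set by the floor. The methods' t-test (-2.86 in BT474, adjusted p = 0.255; 2.86 between the lines in PBS, adjusted p = 0.433) and the PBS arrays alone (2.86) ended the 3p calls. With the shared file under its SKBR3 label the differences in PBS were 0.97 for 3p, -1.73 for 5p and 2.70 for the arm difference, that in trastuzumab was 3.53, and the arm interaction turned to 0.82. The deposited values gave -0.13 for 5p in SKBR3. Sums over all probes gave 2.07 for 3p in PBS with 75th percentile scaling, and without scaling -0.44 for 5p in PBS and 1.57 for the arm difference in trastuzumab; the latter was 1.59 with mean processed signals. The causes were not tested.

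Same-numbered samples are not said to be paired. Deviations of same-numbered arrays correlated at 0.12 to 0.30 over 173 miRNAs, with 2 numbers only. With the replicate number as a block, the 3p decrease in BT474 was -2.86 (limma adjusted p = 0.203), not called, with 35 miRNAs called. In SKBR3 no paired analysis was possible because its distinct arrays share 1 number.

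Of the 4 probes of the arms, 1 was called in BT474, 3 between the lines in PBS and 2 in trastuzumab. Over all probes the calls were 287 of 3089, 707 of 3567 and 499 of 3567. With normexp the arms had 0, 1 and 0 probes called, beside 7, 123 and 133 of all 4774. In BT474, 2 were called with 75th percentile scaling (277 of 2861 over all probes) and 2 with the deposited values (306 of 4774). Probe A_25_P00017209 changed sign with the deposited values (-0.30 in BT474, -0.64 in SKBR3) and, for the interaction, with normexp (-0.0023). Over all miRNAs, the calls for BT474, SKBR3, lines in PBS, lines in trastuzumab and interaction were 40, 27, 128, 130 and 49. Those that moved by over 1.5 times were, in BT474, 104 with mean processed signals, 3 with normexp, 85 with the deposited values, 26 with the methods' t-test, and 69, 93 and 71 with sums over all probes (quantile, 75th percentile, unscaled). In SKBR3 they were 132, 11, 119, 78, 100 and 62 likewise without the t-test, and 14 with the shared file. In PBS they were 324 with mean processed signals, 61 with normexp, 0 with the shared file, and 260, 275 and 244 with the sums. In trastuzumab they were 241, 67 and, with the 75th percentile sums, 238. For the interaction they were 29 without SKBR3 trastuzumab replicate 1, 5 with the shared file, and 109 and 281 with the quantile and 75th percentile sums.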
